A study of Mus musculus with 4 samples.

Results

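Among mouse cells of the Epi-CE culture, 93 of 2386 were chosen for their transcripts of the paraxial mesoderm genes Tbx6, Msgn1 and Aldh1a2. A cell was chosen when its unique molecular identifiers (UMIs, counts of single captured transcripts) of these 3 genes summed to at least 3. Its UMIs of the node genes Foxa2, Foxj1, Chrd, Shh and Noto also had to sum to under 4. Only barcodes marked TRUE in a column named "use" of the deposited cell table were considered, and 8722 of the 10579 barcodes of the 4 libraries carry that mark. The chosen cells were set against the other 2293 Epi-CE cells with the mark.

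The study profiled cultures that resemble neuromesodermal progenitors (NMPs), the bipotent cells at the tail end of the embryo that feed both the spinal cord and the paraxial mesoderm, by droplet-based single-cell RNA sequencing. There was 1 library for each of 4 groups, with 8700 cells loaded for each, and all were labelled with the E14Tg2a mouse embryonic stem cell (ESC) line at passages 15 to 30. Epi-CE came from epiblast stem cells (EpiSCs), which resemble the epiblast after implantation, maintained on fibronectin in N2B27 medium with FGF2 at 12 ng/ml and activin A at 25 ng/ml. Activin A was then withdrawn, FGF2 was raised to 20 ng/ml, and on day 3 CHIR99021, a drug that switches on WNT signalling by inhibiting GSK3, was added at 3 µM. Epi-CE-T was made in the same way from a Brachyury (Bra) to GFP reporter line and its GFP-positive cells were sorted at 72 h. For Epi-NMP the cells were replated Epi-CE cells given FGF2 at 20 ng/ml and CHIR99021 at 3 µM for 2 further days, and for ES-NMP they were ESCs kept in N2B27 with CHIR99021 at 3 µM at the end of a total of 72 h. All 4 groups are thus cultured lines exposed to CHIR99021, and a library and its culture condition cannot be told apart.

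Paraxial mesoderm is the tissue beside the neural tube that segments into somites, from which vertebrae, trunk muscle and dermis form. Its progenitors leave the caudal epiblast through the primitive streak, lose epithelial contacts under the repressor Snai1, and enter the presomitic mesoderm, where the T-box factor Tbx6 represses the neural gene Sox2 and drives the Notch ligand Dll1. In the presomitic mesoderm a clock of Notch and WNT target genes oscillates, and retinoic acid made by Aldh1a2 at its anterior end meets FGF and WNT signals from the tail.

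The choice rested on 2 of its 3 markers. Tbx6 (chromosome 7, 126781483 to 126785560, plus strand, build mm10) had a UMI in 92 of the 93 cells, with a lowest count of 0, a median of 4 and a highest of 14 UMIs per cell. Aldh1a2 (chromosome 9, 71215789 to 71296243, plus strand), the retinaldehyde dehydrogenase, had a UMI in 62 cells, with a median of 2 and a highest of 29. Msgn1 (chromosome 12, 11208360 to 11208972, minus strand), a basic helix-loop-helix factor of early presomitic mesoderm, was nearly absent, with 1 UMI in each of 5 cells. All 3 genes are protein-coding. Tbx6 and Aldh1a2 were detected together in 61 cells, Tbx6 without Aldh1a2 in 31 and Aldh1a2 without Tbx6 in 1. The label of paraxial mesoderm therefore stands on Tbx6 and Aldh1a2, and the cells are called here the Tbx6/Aldh1a2 cells.

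The threshold cut through a continuous range of marker counts. With a node sum under 4, the marker sum was 0 in 1844 Epi-CE cells, 1 in 100 and 2 in 28, and it was 3 in 20 of the chosen cells. The median chosen cell had 6 marker UMIs and the highest had 36. The node limit left out 4 cells with a marker sum of 3 or more, and 321 Epi-CE cells had a node sum of 4 or more. In the chosen cells the node genes were near 0: 10 of the 93 had a node gene UMI, and none had more than 1.

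**Figure D1:**
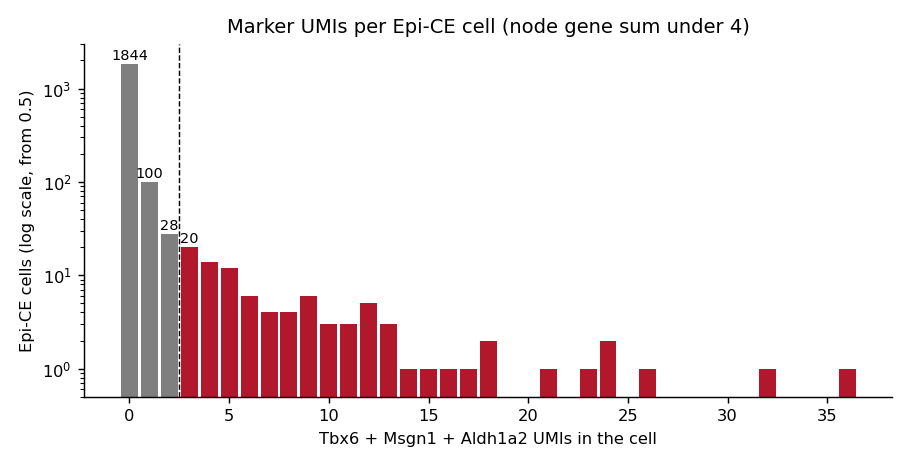
Number of Epi-CE cells (vertical axis, log scale starting at 0.5) at each sum of Tbx6, Msgn1 and Aldh1a2 UMIs (horizontal axis), for cells with a node gene sum under 4. Red bars right of the dashed line are the 93 chosen cells and grey bars the cells below the threshold, with 28 cells just outside it at a sum of 2 and 20 just inside at a sum of 3.

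The chosen share of Epi-CE cells was 3.90% (exact Clopper-Pearson 95% interval 3.16% to 4.75%). All intervals given here cover counting error only, since cells of 1 library are not replicates, and no test across samples was possible. The chosen cells held 2416981 UMIs in all, with 9816 in the shallowest cell, a median of 24586 and 59440 in the deepest, against a median of 22512 in the other cells. Mitochondrial genes took 2.27% of UMIs in the chosen and 2.25% in the other cells, and ribosomal protein genes 28.6% and 28.3%. When every cell was thinned to 8000 UMIs, a depth that all marked cells exceed, the rule chose 34 cells (1.42%, 0.989% to 1.99%). Between 20 and 34 barcodes of each library also occurred in another library, and none of them belonged to the 93 cells. Levels below are summed UMIs per 1000000 (CPM), and ratios of chosen over other cells carry exact conditional-binomial 95% intervals.

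A gene was called higher or lower at a ratio of at least 1.5-fold with an interval excluding 1, among 12157 genes outside the rule with at least 50 UMIs. By this rule 753 genes (6.19%) were higher and 1219 (10.0%) lower in the chosen cells, and the median log2 ratio over all 12157 was -0.0034. These calls describe cells picked by their own expression and are not tests.

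The 2 genes with the highest ratios among those at 20 CPM or more were Frzb and Ptgds. Frzb, a secreted WNT antagonist, was at 53.8 CPM in the chosen cells and 1.78 CPM in the others (ratio 30.2, 23.1 to 39.7). It had a UMI in 35 of the 93 cells, so most chosen cells held none, with a lowest and median count of 0 and a highest of 15. Ptgds, a prostaglandin D2 synthase, was at 166.7 against 6.90 CPM (24.2, 21.0 to 27.9), with a median of 2 UMIs per chosen cell. A single cell with 94 Ptgds UMIs held 23.3% of its counts.

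The RefSeq bases before the start sites of these genes (build GRCm38.p6) are shown because both hold AGGTGT, a core hexamer of T-box factor binding sites. The third line gives the rule gene Aldh1a2, whose window holds the same hexamer on the other strand, ACACCT. The hexamer is in capitals, read 5′ to 3′ along the strand of the gene.
Frzb: tggagtggggaaAGGTGTgcggctcctgtc
Ptgds: tcttcttctaggAGGTGTggggctcagctg
Aldh1a2: gccccccgcttgACACCTgcctatatacag
The Frzb stretch is chr2:80447556-80447585 (minus strand) and its hexamer begins 177 bases before the RefSeq start. It lies in the 5′ untranslated region of a longer GENCODE M21 transcript. The Ptgds stretch is chr2:25469898-25469927 (minus strand), with the hexamer 166 bases before the RefSeq start and inside an intron of a longer transcript. The Aldh1a2 stretch is chr9:71215765-71215794 (plus strand), with the hexamer 12 bases before the start. Counting either strand over the 250 bases before each start, the hexamer was in 11.8% of all 32851 windows of the table. It was in 2 of 14 windows of the 15 genes with the highest ratios, of which 13 were in the table, and in 1 of 11 windows of the 10 with the lowest, of which 9 were. Of the rule markers Tbx6, Msgn1 and Aldh1a2, 1 of 3 windows held it, that of Aldh1a2. The share among the highest genes is thus close to that of all promoters, and a match of letters is no binding site.

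The other 13 genes with the highest ratios had ratios between 8.63 and 16.1. Foxc1, a forkhead factor of paraxial mesoderm and somites, was at 24.8 against 1.96 CPM (12.7, 9.11 to 17.5) and had a UMI in 40 of 93 cells. Igfbp4, which binds insulin-like growth factors, was at 235.8 against 20.1 CPM (11.7, 10.6 to 13.0). It was among the more evenly spread of these genes, with a UMI in 83 cells, a median of 4 and a highest of 36. Snai1 was at 105.5 against 11.7 CPM (9.01, 7.76 to 10.4) with a UMI in 76 cells, and Meis2, a homeobox partner of Hox proteins, at 110 against 11.6 CPM (9.51, 8.21 to 11.0) with a UMI in 78. Guidance receptors were among the 15, namely the semaphorin receptor subunit Plxna2 (11.2, 9.33 to 13.5) and the ephrin receptor Epha4 (10.5, 8.59 to 12.8). Signalling genes were Spry4, an inhibitor of FGF signalling (11.5, 8.07 to 16.3), the ligand Fgf3 (10.8, 7.62 to 15.1) and the Nodal antagonist Lefty2 (9.62, 6.77 to 13.5). Fgf3 was detected in 24 cells and Lefty2 in 15, so both levels came from a minority of the 93. The remaining 4 were Tenm4, a teneurin of the cell surface (16.1), Col13a1, a transmembrane collagen (10.4), Arl4d, a small GTPase (8.88), and Crabp1, which binds retinoic acid (8.63).

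The 10 genes with the lowest ratios were between 8.39-fold and 15.9-fold lower in the chosen cells. Apela, which encodes a peptide ligand of the receptor Aplnr, was at 4.14 against 65.8 CPM (15.9-fold lower, 8.64 to 33.2), whereas Aplnr itself was higher (242 against 44.5 CPM). Krt19, an epithelial keratin, was at 27.7 against 338 CPM (12.2-fold lower, 9.60 to 15.8). Its median chosen cell had 0 UMIs and 1 cell had 15. The tight junction claudins Cldn3 and Cldn7 were 10.5-fold and 8.39-fold lower. For Cldn7, 6 of its 7 UMIs came from a single chosen cell, and without that cell the ratio went from 0.119 to 0.0175. The pluripotency-associated genes Utf1 (9.12-fold lower, 5.42 to 16.7) and Fgf5, a ligand of the primed epiblast (8.82-fold lower, 4.04 to 24.1), were also in this group. The rest were the microsomal glutathione transferase Mgst1, the kinase Pim2, the guanylate-binding protein gene Gbp2b and the iodide transporter Slc5a5, at 8.69-fold to 11.7-fold lower.

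**Figure D2:**
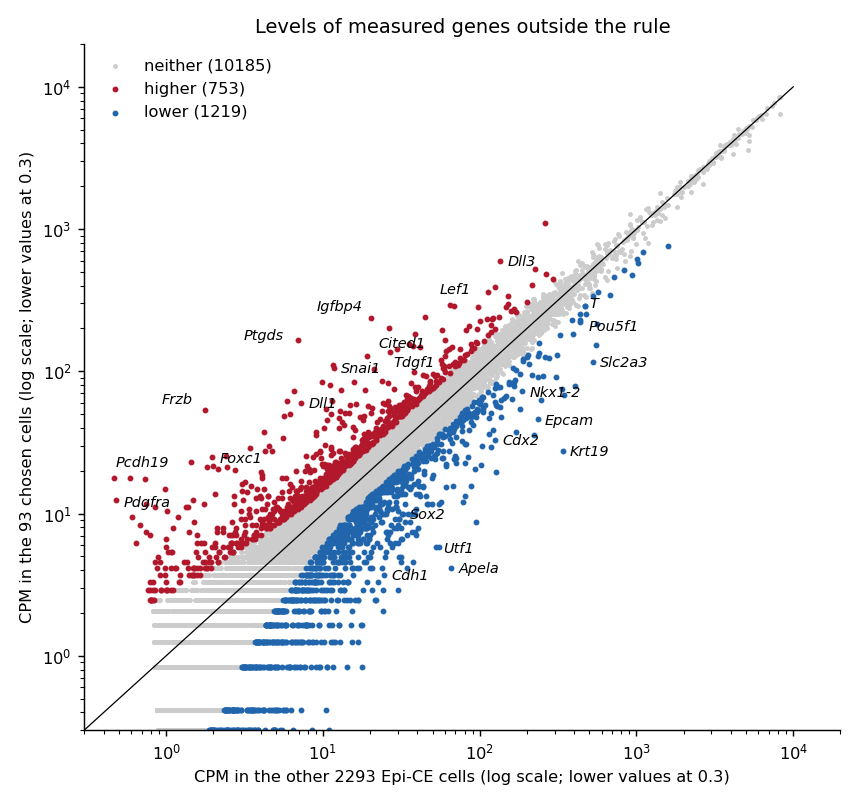
Level of each of 12157 measured genes in the 93 chosen cells (vertical axis, CPM, log scale) against the other 2293 Epi-CE cells (horizontal axis, CPM, log scale), with values under 0.3 CPM drawn at 0.3 and the line of equal levels. Red points are the 753 genes called higher and blue points the 1219 called lower; Frzb and Ptgds lie far above the line and Krt19 and Apela far below it.

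Presomitic and segmentation genes were high in the chosen cells. Of 14 such genes outside the rule, 11 were measured, 9 of them were called higher and 0 lower. Their median log2 ratio was 2.15, beside -0.0034 over all genes. The Notch ligand Dll1 was at 60.0 against 7.24 CPM (8.29, 6.81 to 10.1), with a UMI in 59 cells. Dll3, a Notch ligand family member that dampens signalling in the presomitic mesoderm, was at 597 against 135 CPM (4.43, 4.19 to 4.69). It was detected in 92 of 93 cells with a median of 14 and a highest of 48 UMIs, which makes it a gene of nearly every chosen cell. After thinning it had a UMI in 94.6% of chosen cells, 51.3% of the others and 62.0% of the node-gene cells, against 98.9% and 75.8% of chosen and other cells before thinning.

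The clock genes were high in summed level but found in fewer cells. Hes7, the oscillating repressor of the segmentation clock, was at 79.4 against 11.0 CPM (7.21, 6.10 to 8.49). It was detected in 42 cells, and 1 cell with 44 UMIs held 22.9% of its counts. Lfng, the glycosyltransferase that modulates Notch, was at 33.9 against 5.55 CPM (6.12, 4.74 to 7.82) with a UMI in 37 cells. Nrarp, a Notch-induced feedback regulator, was at 39.7 against 10.2 CPM (3.89, 3.10 to 4.84) with a UMI in 45. After thinning, Hes7 had a UMI in 29.0% of chosen cells, 7.98% of the others and 7.17% of the node-gene cells (45.2% and 14.9% of chosen and other cells before thinning).

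Other presomitic genes followed the same direction. Cited1, a transcriptional co-activator, was at 202 against 26.4 CPM (7.63, 6.87 to 8.45) with a UMI in 79 cells. Rspo3, which amplifies WNT signalling, was at 288 against 68.8 CPM (4.19, 3.86 to 4.54) with a UMI in 88. The protocadherin Pcdh19 was at 17.8 against 0.587 CPM (30.3, 18.8 to 49.3), below the level set for ranking. The Notch target Hey1 was at 3.31 against 4.11 CPM and the protocadherin Pcdh8 at 2.07 against 2.81 CPM, and neither was called. Genes of the segment boundary were close to undetected. Mesp1 had 10 UMIs in 5 cells (ratio 3.88, or 2.35 without the cell with the most), Mesp2 had 6 UMIs, Ripply2 had 2 and Ripply1 had 0.

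Genes of formed somites were sparse. Of 14 somite genes, 3 reached 50 UMIs and 1 of these, Foxc1, was called higher. Tcf15 (paraxis), needed for epithelial somites, was at 11.2 against 14.1 CPM and was not called, nor was Eya1 at 2.07 against 0.924 CPM. Meox1, a homeobox gene of somites, had 6 UMIs in 4 cells, and Foxc2 had 5 UMIs in 5 cells. Meox2, Pax3, Pax1, Uncx and Tbx18 had 0 UMIs in the 93 cells, which allows a level of up to 1.24 CPM each, taking 3 counts of the cells' UMI total as the floor. The measured genes of both lists together had a median log2 ratio of 2.11.

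**Figure D3:**
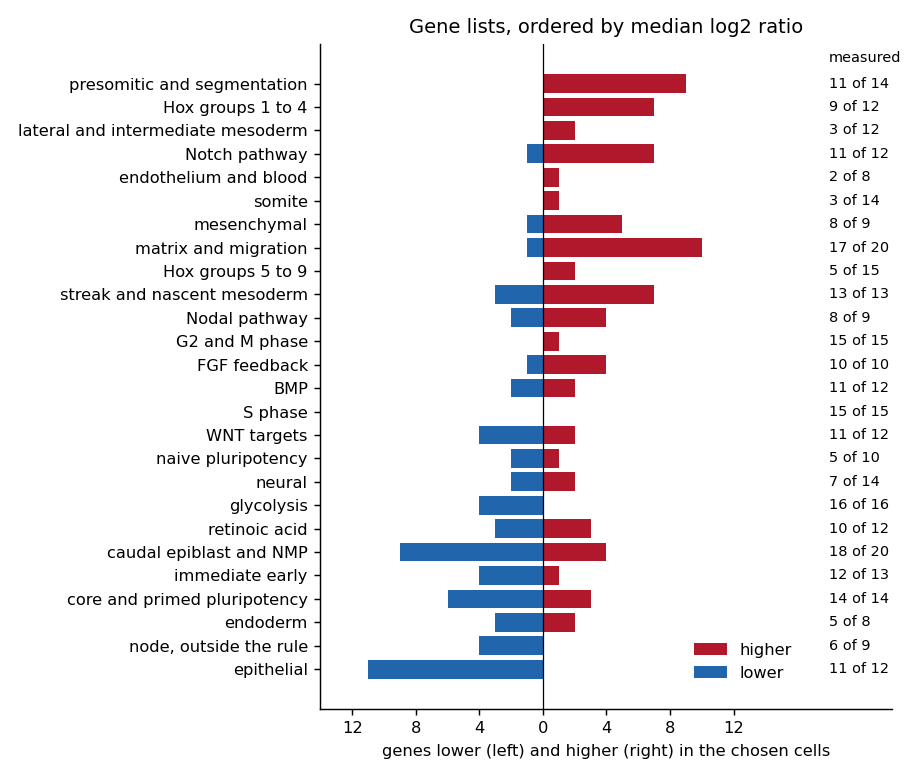
Number of genes called higher (red, right) and lower (blue, left) in the chosen cells for each of 26 gene lists, ordered by the median log2 ratio of their measured members; the text at the right gives measured members of all members. Presomitic genes stand at the top with 9 of 11 higher and epithelial genes at the bottom with 11 of 11 lower. Some genes are counted in several lists.

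Genes of the primitive streak and nascent mesoderm were mixed, with 7 of 13 higher and 3 lower (median log2 0.68). Pdgfra, a growth factor receptor of early mesoderm, was at 12.4 against 0.480 CPM (25.9, 14.9 to 45.2), with 30 UMIs in 23 cells. The streak factor Mixl1 was at 74.1 against 13.0 CPM (5.71, 4.82 to 6.73) with a UMI in 49 cells. Aplnr, the apelin receptor, was at 242 against 44.5 CPM (5.43, 4.96 to 5.95) and was found in 91 of 93 cells. The LIM homeobox gene Lhx1 (2.50) and Evx1 (1.61) were also higher. T, which encodes Brachyury, was lower in level at 254 against 438 CPM (1.73-fold lower, 1.59 to 1.87). It had a UMI in 82 of the 93 cells, with a median of 5, a share of 88.2% against 88.7% of the other cells. After thinning the shares were 74.2% and 78.7%, and 92.8% in the node-gene cells, which are among the other cells. The streak ligands Fgf8 (61.2 against 97.3 CPM) and Wnt3a (5.38 against 10.1 CPM) were lower too.

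Caudal epiblast and NMP genes were more often lower than higher. Of 18 measured genes of this list, 9 were lower and 4 higher, and the median log2 ratio was -0.44. Sox2, the neural and pluripotency factor, was at 9.93 against 32.3 CPM (3.25-fold lower, 2.18 to 5.09) and was found in 16 of 93 cells. Nkx1-2, a homeobox gene of the caudal epiblast, was at 72.4 against 186 CPM (2.57-fold lower, 2.22 to 3.00), and the caudal factor Cdx2 at 33.1 against 126 CPM (3.80-fold lower, 3.05 to 4.80). Sp8, a zinc finger factor, was 6.72-fold lower with 6 UMIs left. The 4 higher genes were the ligand Wnt5a (29.8 against 4.55 CPM), the retinoic acid hydroxylase Cyp26a1 (37.2 against 9.01 CPM), Greb1 (29.4 against 11.2 CPM) and Evx1. Cyp26a1 came from 17 cells, 1 of which had 19 of its 90 UMIs.

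Cells with both T and Sox2, the usual mark of NMPs, were counted after thinning. They made up 6 of the 93 chosen cells (6.45%, 2.40% to 13.5%), 352 of the 2293 others (15.4%, 13.9% to 16.9%) and 69 of the 321 node-gene cells (21.5%). T and Nkx1-2 were detected together in 30.1% of chosen and 50.7% of other cells. Tbx6 and T shared 51 of the 93 chosen cells (54.8%, 44.2% to 65.2%), so T was detected with Tbx6 in most of them. Dll1 and Dll3 were detected together in 28 of 93 (30.1%, 21.0% to 40.5%), against 3.31% of the other cells and 5.30% of the node-gene cells.

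All measured epithelial genes were lower and most mesenchymal genes higher. The 11 measured members of 12 epithelial genes were all called lower, with a median log2 ratio of -2.37. E-cadherin (Cdh1), the main epithelial adhesion protein, was at 3.72 against 24.6 CPM (6.61-fold lower, 3.47 to 14.5), and the adhesion molecule Epcam at 45.9 against 234 CPM. The keratins Krt8 and Krt18, partners in one filament, were at 75.3 against 336 CPM and 78.6 against 406 CPM, with 88 and 86 UMIs in the single cell richest in each. Of 8 measured mesenchymal genes 5 were higher and 1 lower. The matrix protein gene Fn1 was at 156 against 35.4 CPM (4.42, 3.95 to 4.94), Twist1 at 17.0 against 7.20 CPM (2.36, 1.67 to 3.25), and N-cadherin (Cdh2) at 64.5 against 36.4 CPM (1.77, 1.5 to 2.09). The lower one was the intermediate filament gene Vim, at 618 against 1002 CPM.

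Matrix and migration genes were mostly higher, with 10 of 17 higher and 1 lower (median log2 0.86). Besides Fn1, Epha4 and Pdgfra, they included the laminin chain Lama1 (8.28 against 0.676 CPM, 12.2, 6.75 to 21.6), the hyaluronan synthase Has2 (3.72 against 0.907 CPM), the collagen chain Col1a2 (6.21 against 1.56 CPM) and the ephrin ligand Efna1 (12.4 against 3.11 CPM). Lama1 had 20 UMIs in 18 cells, so no single cell carried it. The lower one, Pdgfrb, had 1 UMI in the chosen cells.

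The signalling lists split by pathway. In the Notch list 7 of 11 measured genes were higher and 1 lower (median log2 1.62). The receptor Notch1 (41.8 against 13.6 CPM) and Notch3 (23.6 against 14.3 CPM) were among the higher ones, and Notch2 (7.03 against 13.9 CPM) was the lower one. The other higher ones, Dll1, Dll3, Hes7, Lfng and Nrarp, were already counted in the presomitic list. The Notch count is thus not separate from the presomitic one. In the WNT target list 2 of 11 were higher and 4 lower (median log2 -0.04). Lef1, the transcription factor through which WNT signals reach their targets, was at 293 against 65.0 CPM (4.51, 4.16 to 4.89) and was found in all 93 cells, with a median of 7 UMIs. The cell cycle gene Ccnd1 was at 198 against 96.2 CPM. The secreted WNT inhibitors Notum (2.07 against 15.4 CPM) and Dkk1 (1.24 against 6.37 CPM) were lower, and the target Sp5 was close to equal (238 against 219 CPM).

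Among 10 genes of FGF feedback 4 were higher and 1 lower. Spry4, Spry2 (39.7 against 12.6 CPM), Il17rd (22.3 against 10.2 CPM) and Spred2 (28.1 against 16.5 CPM), all inhibitors of the pathway, were higher, and the phosphatase gene Dusp4 was lower (49.6 against 83.0 CPM). In the Nodal list 4 of 8 were higher and 2 lower. Tdgf1 (Cripto), a Nodal co-receptor, was at 144 against 29.8 CPM (4.82, 4.29 to 5.42) but was found in 45 cells, and 1 cell with 54 UMIs held 15.6% of its counts. The co-receptor Cfc1 was lower (3.72 against 11.0 CPM), with 7 of its 9 UMIs in 1 cell. In the BMP list 2 of 11 were higher, the inhibitors Smad7 (2.24, 1.44 to 3.36) and Bambi (1.96, 1.63 to 2.33), and 2 were lower, the ligand Bmp2 (3.99-fold) and the target Id3 (3.32-fold).

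The retinoic acid genes beside Aldh1a2 did not move one way, with 3 of 10 higher and 3 lower. The binding protein Crabp1 (48.8 against 5.65 CPM) and the hydroxylase Cyp26a1 were among the higher ones. The binding protein Crabp2 (32.3 against 77.6 CPM), the receptor Rarg (12.0 against 29.1 CPM) and Rdh10, the enzyme one step before Aldh1a2 (6.21 against 16.7 CPM), were lower.

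Anterior Hox genes were higher, with 7 of 9 measured genes of groups 1 to 4 higher and 0 lower (median log2 1.83). Hoxb1 was at 104 against 21.1 CPM (4.95, 4.30 to 5.67) with a UMI in 78 cells, Hoxb2 at 84.0 against 15.7 CPM (5.35, 4.57 to 6.24) with a UMI in 65, and Hoxb4 at 13.2 against 2.72 CPM (4.87, 3.22 to 7.16). Of groups 5 to 9, 5 of 15 genes were measured and 2 were higher, Hoxd9 (5.38 against 1.07 CPM) and Hoxa7 (6.21 against 2.61 CPM).

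The pluripotency genes were mixed. The list of core and primed pluripotency had 6 lower and 3 higher genes among 14 (median log2 -0.56). Pou5f1 (Oct4) was at 228 against 435 CPM, Nanog at 2.48 against 15.0 CPM and the POU factor Pou3f1 at 4.55 against 37.5 CPM, while the DNA methyltransferase gene Dnmt3b was higher (71.6 against 45.5 CPM). Without the cell with the most Nanog UMIs, the Nanog ratio went from 0.166 to 0.0837. Of 16 glycolysis genes 4 were lower and 0 higher, namely the glucose transporters Slc2a3 (116 against 527 CPM, 4.53-fold lower, 4.03 to 5.11) and Slc2a1 (216 against 558 CPM, 2.59-fold lower, 2.37 to 2.83), Aldoc and Pfkp. Naive pluripotency genes split, with Klf5 higher and Klf2 and Klf4 lower among 5 measured. Few cell cycle genes reached the 1.5-fold set for a call. Of 15 S phase genes 0 were called (median log2 0.14). Of 15 genes of G2 and M phase 1, Cdc20, was called higher (401 against 216 CPM). The G2 and M list was nonetheless shifted upward, with a median log2 ratio of 0.43 and summed levels of 3597 against 2859 CPM. Of 12 immediate early genes 4 were lower, Jund, Ier3, Atf3 and Dusp1, and Egr1 was higher (70.3 against 43.3 CPM).

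Markers of other cell classes were examined as whole lists. The 6 node or notochord markers, 5 of which the rule limits, summed to 9.10 CPM in the chosen and 82.9 CPM in the other cells, with Noto at 0. The sixth, Nog, was 3.89-fold lower. The 7 lateral and intermediate mesoderm markers summed to 7.03 and 1.48 CPM, mostly Gata4 at 6.62 against 0.996 CPM (6.65, 3.56 to 11.8). Of the rest, Hand1, Hand2, Osr1, Pax2 and Pax8 were at 0 and Foxf1 had 1 UMI. In the longer list of that tissue, 2 of 3 measured genes were higher and 0 lower (median log2 1.83). Isl1, from that longer list, was at 14.9 against 4.20 CPM. The 6 endothelial and blood markers summed to 187 and 40.9 CPM, mostly Lmo2 at 183 against 38.6 CPM (4.75, 4.28 to 5.26) and in 72 cells. Among them, Kdr, Tal1, Pecam1 and Cdh5 were at 0, and Etv2 was at 3.31 against 1.83 CPM, not called. The 5 endoderm markers summed to 12.4 and 12.8 CPM, with Cer1 and Foxa1 at 0, and the 5 neural markers to 4.14 and 5.39 CPM, with Sox1, Neurog2 and Olig2 at 0. Apart from Foxa1 (3.65 CPM in the other cells), every marker named here at 0 was also under the floor of 1.24 CPM in the other cells. The highest of these was Noto at 0.782 CPM, and Kdr, Hand2 and Olig2 had 0 UMIs there too. Their zeros therefore do not set the chosen cells apart from the others. The 5 primed pluripotency markers summed to 451 and 578 CPM, with none at 0. The 5 markers of caudal epiblast or NMPs summed to 146 and 395 CPM, and 4 of them were lower. In the longer lists of these classes, 4 of 6 measured node genes outside the rule were lower and 0 higher. The other cells hold all 321 node-gene cells that the rule kept out, so the rule itself favours lower levels of such genes. After thinning, Nog had a UMI in 4.30% of chosen cells, 12.1% of the others and 27.4% of the node-gene cells. Of 5 measured endoderm genes 3 were lower and 2 higher, Gata4 and Hhex (9.10 against 5.55 CPM). Of 7 measured neural genes 2 were lower, Sox2 and Crabp2, and 2 higher, Crabp1 and Ncam1 (26.9 against 16.3 CPM). The part of these cell classes in the levels above was not tested.

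Levels were followed along the marker sum, which the rule used, so the steps describe where the threshold falls. Dll3 was at 115 CPM (112 to 118) in cells with a sum of 0, 289 at 1, 381 at 2, 590 at 3 to 4 and 601 at 5 or more, and at 176 CPM in the node-gene cells. Snai1 went from 9.62 CPM at 0 to 35.2 at 1, 72.7 at 2, 108 at 3 to 4 and 104 at 5 or more. Both genes were thus raised in cells just outside the threshold and level within the chosen range. Igfbp4 was at 16.2, 85.4, 117.9, 167 and 274 CPM over the same steps, with an interval of 248 to 301 CPM at the last and 141 to 197 CPM before it. Ptgds was at 86.4 CPM at 2, 80.1 at 3 to 4 and 215 at 5 or more.

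Krt19 was at 329 CPM at a marker sum of 0, 285 at 1 and 202 at 2 (170 to 237), then 43.0 at 3 to 4 (30.2 to 59.2) and 19.3 at 5 or more. Epcam was at 249, 167, 91.9, 87.1 and 23.1 CPM over these steps. Sox2 was at 32.3 CPM at 0, 21.7 at 1 and 8.23 at 2 (3.02 to 17.9), and within that interval in the chosen steps. Nkx1-2 was at 197 CPM at 0 and 182 at 1, then 67.2 at 2, 88.2 at 3 to 4 and 63.6 at 5 or more. The pooled level of Krt19 thus dropped at the threshold, while those of Sox2 and Nkx1-2 were already low in the 28 cells just below it. How the Krt19 UMIs were spread over those 28 cells was not examined, so a few of them could carry its level there.

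**Figure D4:**
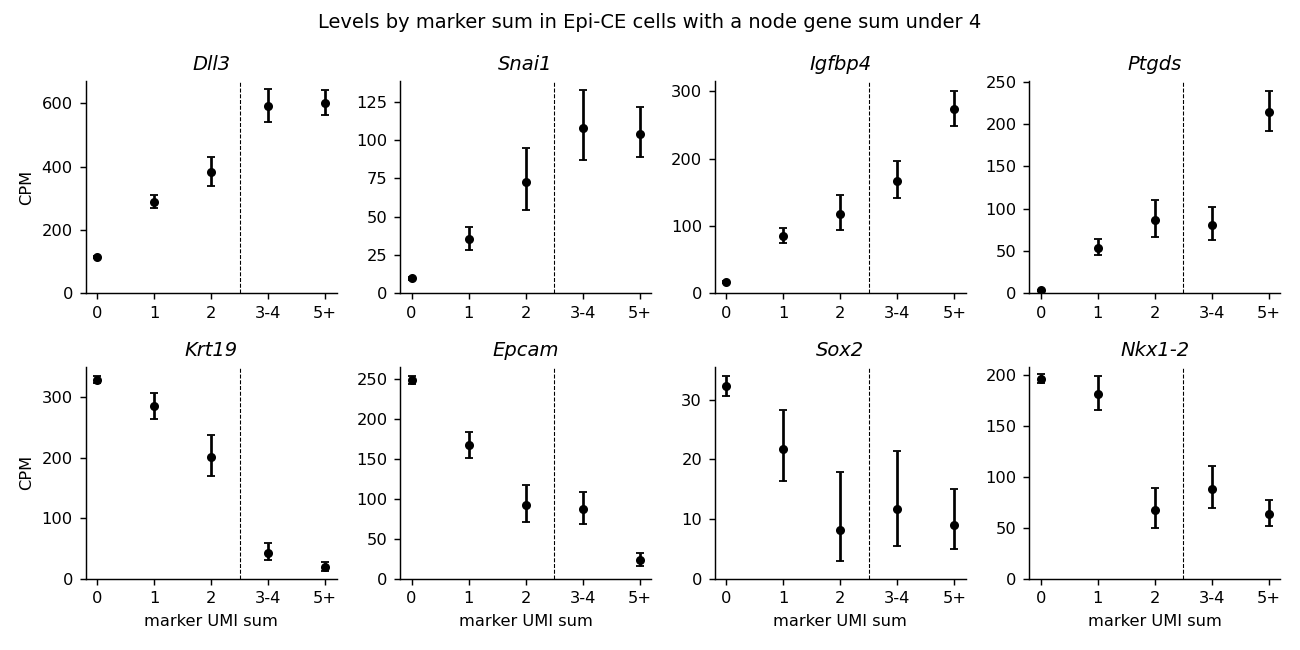
Level of 8 genes (vertical axes, CPM from 0) in Epi-CE cells grouped by their sum of Tbx6, Msgn1 and Aldh1a2 UMIs (horizontal axes: 0, 1, 2, 3 to 4, 5 or more), node gene sum under 4, with exact Poisson 95% intervals. The dashed line marks the rule's threshold; Dll3 and Snai1 reach their chosen level at 3 to 4 and Krt19 falls from 202 to 43.0 CPM across it.

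The 93 cells were also divided into the 62 with and the 31 without an Aldh1a2 UMI, whose median depths were 23819 and 25256 UMIs. Aldh1a2 is a gene of the rule, so a cell without it could be chosen only through Tbx6 and Msgn1, and the division is a description. Among 5188 genes with at least 50 UMIs in the 93 cells, 99 (1.91%) were called higher and 104 (2.00%) lower with Aldh1a2. Frzb was at 70.6 CPM with and 18.1 CPM without it (3.89, 2.23 to 7.35), and Dll1 at 73.0 and 32.4 CPM (2.26, 1.46 to 3.62). Meis2 was at 134 and 59.5 CPM (2.25, 1.63 to 3.16), and Cited1 at 233.5 and 133.3 CPM (1.75, 1.41 to 2.20). Hes7 was at 96.7 and 42.7 CPM (2.26, 1.55 to 3.40), or 159 and 33 UMIs. The single cell with 44 Hes7 UMIs is therefore among those with Aldh1a2, and the ratio without that cell was not computed. Of the streak genes, T was at 214 CPM with and 339 CPM without Aldh1a2 (1.58-fold lower), Mixl1 at 52.9 and 119 CPM (2.25-fold lower, 1.66 to 3.05), and the Nodal antagonist Lefty1 at 110 and 249.8 CPM (2.27-fold lower, 1.84 to 2.79). Nkx1-2 was at 59.6 and 99.6 CPM (1.67-fold lower). Among genes at 20 CPM or more in the higher set, the one with the largest such difference was Sprr2a3, a small proline-rich protein gene, at 78.5 and 279.5 CPM (3.56-fold lower, 2.85 to 4.47).

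Of 7 measured presomitic genes 3 were called higher with Aldh1a2 and 0 lower, and Dll3 was at 539.5 and 719.5 CPM, a difference below the 1.5-fold set for a call. Of 7 nascent mesoderm genes 0 were higher and 2 lower, T and Mixl1, and Snai1 was close to equal (107 and 102 CPM). Cdx2 (40.8 and 16.8 CPM) and Cyp26a1 (43.2 and 24.6 CPM) were higher with Aldh1a2, while the FGF-induced phosphatase genes Dusp6 (69.3 and 119 CPM) and Dusp4 (42.0 and 66.0 CPM) were lower. Krt19 (33.5 and 15.5 CPM) was called higher with Aldh1a2 even though it was low in both sets of cells. It had 55 and 12 UMIs in these sets, so the single cell with 15 Krt19 UMIs is among those with Aldh1a2. Cyp26a1 had 71 and 19 UMIs, and 1 chosen cell held 19. The ratios without these cells were not computed.

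The same rule was applied to the other 3 libraries. It chose 104 of 3116 ES-NMP cells (3.34%, 2.74% to 4.03%), 70 of 1111 Epi-NMP cells (6.30%, 4.94% to 7.89%) and 5 of 2109 Epi-CE-T cells (0.237%, 0.0770% to 0.552%). Median depths of the marked cells were 22066, 19252 and 19189 UMIs, against 22613.5 in Epi-CE. After thinning the shares were 1.35%, 2.79% and 0%, the last allowing up to 0.142% at 3 cells of 2109. Epi-CE-T, which followed the Epi-CE protocol but from a reporter line and with a sort for GFP, thus had the smallest share on both counts. Its 5 cells had a median of 34719 UMIs, above the median of their library, and are not described further.

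The marker mix differed between the libraries. In the chosen ES-NMP cells Tbx6 was at 181 CPM and Aldh1a2 at 145 CPM, close to 182 and 136 CPM in Epi-CE. In the chosen Epi-NMP cells Tbx6 was at 64.3 CPM and Aldh1a2 at 270 CPM. Msgn1 was nearly absent in all of them, with 3 UMIs in the chosen ES-NMP cells and 0 in those of Epi-NMP, so it was nearly absent outside Epi-CE as well.

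In ES-NMP 649 of 12466 measured genes (5.21%) were higher and 1164 (9.34%) lower in the chosen cells. In Epi-NMP 377 of 10260 (3.67%) were higher and 646 (6.30%) lower. Of the 753 genes higher in the chosen Epi-CE cells, 241 were also higher in ES-NMP, which is 32.0% of the Epi-CE and 37.1% of the ES-NMP list, and 22 were lower there. With Epi-NMP 134 were shared, 17.8% of the Epi-CE and 35.5% of the Epi-NMP list, and 15 were lower there. Of the 1219 lower genes, 465 were also lower in ES-NMP (38.2% of the Epi-CE and 39.9% of the ES-NMP list), and 31 were higher there. In Epi-NMP, where 945 of them were measured, 297 were also lower (24.4% and 46.0%) and 18 were higher.

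Of the 15 highest Epi-CE genes, 13 were also higher in ES-NMP, and 13 of the 14 measured were higher in Epi-NMP. Frzb had ratios of 12.3 (10.1 to 14.9) in ES-NMP and 9.01 (7.17 to 11.3) in Epi-NMP, Ptgds 47.1 (33.8 to 66.1) and 23.6 (14.7 to 38.6), and Snai1 8.18 and 6.21. The exceptions were Crabp1 and Lefty2 in ES-NMP (0.916 and 1.5, not called) and Fgf3 in Epi-NMP, which was 3.85-fold lower. For Crabp1 in ES-NMP the summed levels were close (103.5 against 112.9 CPM), but the shares of cells were not. After thinning, it had a UMI in 43.3% of chosen and 15.5% of other ES-NMP cells. All 10 lowest genes were lower in ES-NMP, and 4 of the 5 measured were lower in Epi-NMP. Some of these calls rest on few counts. The chosen ES-NMP cells held 0 Gbp2b UMIs, a call made at the 3-count floor, 1 of Slc5a5 and 2 each of Cldn3 and Fgf5. Krt19 was 8.12-fold lower in ES-NMP and 19.5-fold lower in Epi-NMP, the latter with 2 UMIs in the chosen cells. T, lower in the chosen cells of Epi-CE, was 3.43-fold lower in Epi-NMP (73.9 against 253 CPM) and was at 127 against 101 CPM in ES-NMP (1.25, 1.11 to 1.40, not called).

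**Figure D5:**
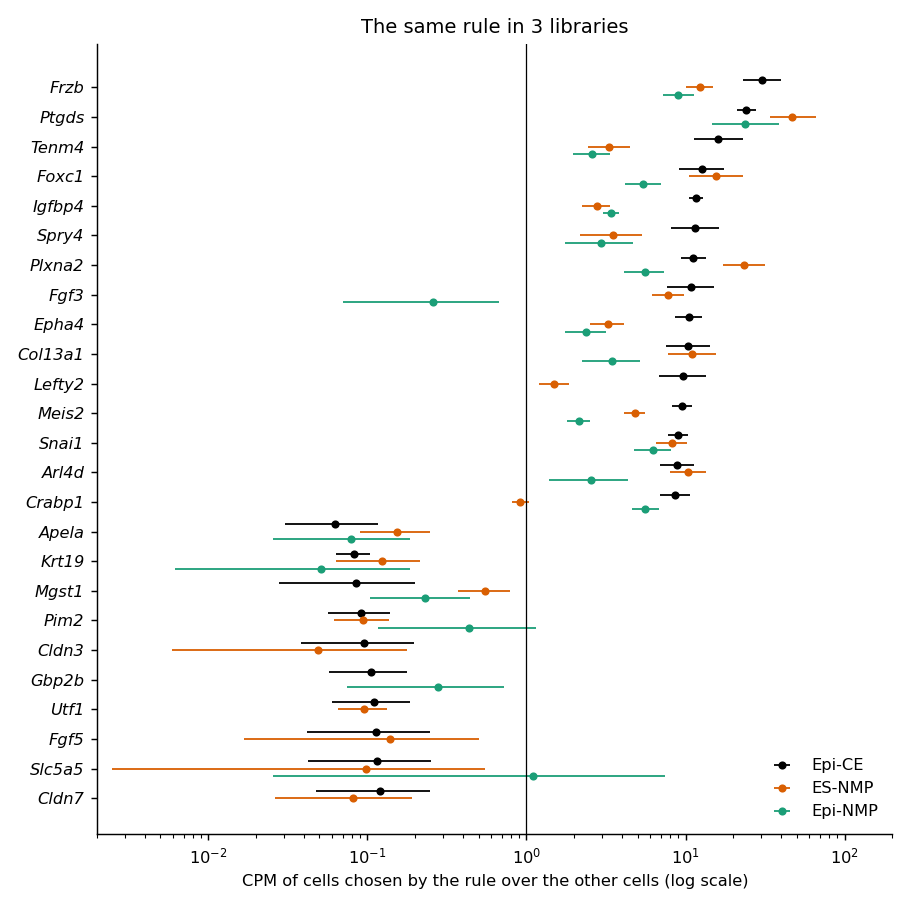
Ratio of CPM in cells chosen by the rule over the other cells of the same library (horizontal axis, log scale) with exact 95% intervals, for the 15 highest and 10 lowest Epi-CE genes, in Epi-CE (black), ES-NMP (orange) and Epi-NMP (green). Genes with 0 UMIs in the chosen cells of a library have no point; most ratios lie on the same side of 1 in the 3 libraries, and those of Fgf3 and Slc5a5 in Epi-NMP and of Crabp1 in ES-NMP do not.

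Of the 28 presomitic and somite genes, 6 are given here that differed most plainly between the chosen cells of Epi-CE and Epi-NMP, picked after their values were seen. Tcf15 was at 11.2 CPM in the chosen cells of Epi-CE, 11.0 in ES-NMP and 319 in Epi-NMP. For Meox1 these levels were 2.48, 17.4 and 188 CPM, Foxc2 at 2.07, 6.49 and 52.9, Mesp1 at 4.14, 2.03 and 131, and Mesp2 at 2.48, 0.812 and 82.8. Ripply2, a repressor that sets the segment boundary, had 2 UMIs in the chosen cells of Epi-CE and 0 in ES-NMP, and was at 38.9 CPM in Epi-NMP. After thinning, the chosen Epi-NMP cells with a UMI made up 65.7% for Tcf15, 44.3% for Meox1, 27.1% for Foxc2, 20.0% for Mesp2, 17.1% for Mesp1 and 7.14% for Ripply2. Other somite genes were at or near 0 in both, such as Pax1 with 0 UMIs, or less far apart, such as Foxc1 at 24.8 and 56.0 CPM. The 6 genes were thus lower in the chosen cells of both Epi-CE and ES-NMP than in those of Epi-NMP, a difference between single libraries with no replicate check. The presomitic genes were present in the chosen cells of all 3 libraries, with Dll1 at 60.0, 104 and 88.5 CPM and Dll3 at 597, 271 and 305 CPM.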

How the data were processed

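The authors deposited raw UMI counts, whole numbers for 27998 genes in each cell. The submitters' processing notes name the genome build mm10 and the programs Cell Ranger (1.3.1) and Seurat (2.0). Not given in the sources used here are the alignment settings, the annotation, the handling of strand and what the "use" mark stands for. As strand use is unknown, overlapping and antisense genes cannot be told apart.

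Each barcode's library came from the deposited cell table, and the 4 groups from the sample titles, with 1 sample per group. UMIs were summed over the cells of a set and divided by the set's total, in units of 1000000 (CPM). Ratios have exact conditional-binomial, levels exact Poisson and shares exact Clopper-Pearson 95% intervals (SciPy 1.17.1). A gene with 0 UMIs in one set was placed at a floor of 3 counts over the set (1.24 CPM in the chosen, 0.0533 CPM in the other Epi-CE cells). Thinning to 8000 UMIs per cell left out no marked cell. Scrublet (in scanpy 1.11.5) called 9 of 2386 Epi-CE cells, 1 of them chosen, too small a number to rely on, and all cells were kept. Of the 5% of cells with the highest scores 4 were chosen cells. Gene coordinates came from GENCODE M21 on mm10 and promoter windows from RefSeq on GRCm38.p6. The calculation was tested on simulated data, drawn as Poisson counts from pooled levels. That simulation had no spread between cells, so it does not cover genes whose UMIs lie mostly in a few cells.

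The members, the 26 gene lists and the alternatives were chosen with earlier results of these data known. Named genes were the 15 highest and 10 lowest ratios among 5370 genes with at least 50 UMIs and 20 CPM in the higher set (without ribosomal protein, mitochondrial and predicted genes), T, Sox2, Nkx1-2, Cdx2, the 8 rule genes, all presomitic and somite genes, and up to 4 called members of each other list. Further list members named beside them, and Sprr2a3 and the genes of the closing observations, were chosen after their values were seen. A few list members are not reported here. Alternatives were other scalings (edgeR 4.0.16, DESeq2 1.42.0), other thresholds, filters, comparison cells and depths. Leaving out the chosen cell with the most UMIs of a gene was added after seeing the data.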

Additional observations from a re-analysis of the deposited data

Results flagged for a closer look

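Several genes lay on opposite sides of 1 in the chosen cells of 2 libraries, with both intervals excluding 1. Each case rests on 1 library per group, and the difference between libraries was not tested. Against ES-NMP, Tdgf1 had a ratio of 4.82 in Epi-CE and 0.395 in ES-NMP (24.4 against 61.7 CPM there), Smad7 2.24 and 0.536, Hoxa7 2.38 and 0.551, and Dkk1 0.195 and 4.15 (12.2 against 2.94 CPM in ES-NMP). Against Epi-NMP, Fgf3 had a ratio of 10.8 in Epi-CE and 0.260 in Epi-NMP, Rspo3 4.19 and 0.524, Wnt5a 6.55 and 0.511, Cyp26a1 4.13 and 0.204, Ncam1 (a neural cell adhesion gene) 1.65 and 0.348, Hoxa7 2.38 and 0.150, and Aldoc 0.441 and 1.78. Rspo3 was at 127 CPM in the chosen and 242 CPM in the other Epi-NMP cells, and Hoxa7 at 10.8 and 72.1 CPM. Some of these ratios rest on few counts, with 3 Dkk1 UMIs in the chosen Epi-CE cells, 4 Fgf3 and 8 Cyp26a1 UMIs in those of Epi-NMP, and the Aldoc interval in Epi-NMP began at 1.004.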

How the results depend on the processing

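The share of chosen Epi-CE cells, 3.90%, moved with the rule's own terms: to 1.42% on thinned cells, 5.07% with a marker sum of at least 2, 2.47% with at least 5 and 3.14% with Tbx6 and Msgn1 alone. By construction, a 2-fold threshold left 319 genes higher and 809 lower, dropping the interval gave 2243 lower, and levels from thinned cells, which hold fewer UMIs, gave 719 lower. The number of genes higher in the chosen cells and of genes lower in the chosen cells stayed within 1.5 times of 753 and 1219 under the other alternatives, and the presomitic and somite median ranged from 2.02 to 2.38 (log2). Scaling by TMM factors gave 652 higher and 1342 lower, and the median of all genes shifted by under 0.1 under TMM and DESeq2 factors. Over 110 named genes, 138 of 1842 recomputed ratios moved by more than counting error, and the 98 called genes kept their direction in 1650 of 1650. These alternatives use largely the same cells in which the genes were called, so the kept direction is no independent check. Leaving out 1 library was not possible with 1 per group. No paired analysis was possible because each group has 1 sample. At 93 cells, 3 counts correspond to 1.24 CPM, which limits what can be said of genes near 0.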

Other observations

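Abundant genes outside the lists also differed between the chosen and the other Epi-CE cells, and the following were picked after their values were seen. Ifitm1, an interferon-induced membrane protein gene active in early mesoderm, was at 1109 against 262 CPM. Gpc3, a glypican of the cell surface, was at 361 against 113 CPM, and the cathepsin gene Ctsl at 527 against 226 CPM. Nop56 (482 against 267 CPM), Nop58 (263 against 169 CPM) and Nolc1 (212 against 117 CPM), which encode nucleolar proteins, and Srm, which makes spermidine (237 against 122 CPM), were also higher. No list of such genes was counted.

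Other genes picked in the same way were lower. Tuba1a, an alpha-tubulin gene, was at 764 against 1586 CPM, with 242 of its 1846 UMIs in a single chosen cell, and the tropomyosin gene Tpm1 at 475 against 939 CPM. Fdps (360 against 572 CPM), Hmgcs1 (289 against 468 CPM) and Msmo1 (230.5 against 389 CPM), which encode enzymes of sterol synthesis, were lower. Igfbp2 (152 against 551 CPM) and Igfbp3 (67.8 against 347 CPM) were lower, whereas Igfbp4 was higher.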
